A study of Oryza sativa with 17 samples.

Results

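The comparison described here was the ripening of red rice (RR) grains under foliar Fe treatment, from 15 to 20 days after flowering (DAF). It rested on 6 libraries of 17 in the series, replicates 1 to 3 at 15 DAF and replicates 1 to 3 at 20 DAF. RR was the variety Yuhongdao 5815 in every group. In the Fe treatment, ferrous sulfate in water was sprayed on the leaves at the end of booting and again a week later, and the control plants were sprayed with deionized water. Nicotinamide, given as an aid to Fe uptake, and the surfactant Tween 80 were in all the sprays, those of the control included. The study used 2 Fe concentrations. Its methods name the lower of them for the genes behind its network, and the labels of the libraries give none. Plants grew in pails, each biological replicate pooled several pails, and a library therefore held RNA of grains from many plants. Messenger RNA was captured by its poly-A tail from whole grains, so endosperm, embryo, seed coat and any remaining hull were read together, and fewer cells of a type and less RNA per cell cannot be told apart. Control RR libraries (replicates 2 and 3 at 15 DAF, replicates 1 to 3 at 20 DAF) were used beside them. Replicate 1 of the control at 15 DAF was not analysed here.

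A gene was a member when its level reached at least 1 FPKM (fragments scaled to transcript length and library size) in 2 or more of the 6 libraries. 17308 of the 32657 genes in the table met this rule and were tested. Of them, 1680 were new genes of the authors' assembly and 1973 had a short gene name in the reference table. All levels below are FPKM, and all changes are differences of log2(FPKM + 1) between 20 and 15 DAF, which understate the fold of genes near 0.

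Cereal grains fill from a starchy endosperm, whose cells load starch and storage proteins and then die, while the aleurone, the embryo and the maternal seed coat stay alive longer. Glutelins and prolamins are made on the endoplasmic reticulum and packed into protein bodies there or in vacuoles, with the help of chaperones such as BiP and of disulfide isomerases. As filling ends, grains lose water, and late maturation genes such as small heat shock proteins and LEA proteins are known to take over. In rice, Fe reaches the grain bound to chelators such as nicotianamine and is stored mainly in the aleurone and the embryo.

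The 6 libraries did not form 2 even groups. Across the genes tested, Fe replicate 1 at 15 DAF correlated at 0.944 to 0.969 with the control libraries of the same day but only at 0.826 to 0.863 with Fe replicates 2 and 3 at 15 DAF. Replicates 2 and 3 correlated at 0.950 with each other and at 0.811 to 0.895 with the control at 15 DAF. With the Fe libraries at 20 DAF they correlated at 0.908 to 0.927 for replicate 3 but at 0.825 to 0.879 for replicates 1 and 2. The 3 libraries at 20 DAF correlated at 0.912 to 0.957 with each other and at 0.920 to 0.958 with the control at 20 DAF. In a principal component analysis of the 11 RR libraries, the first component held 61.9% and the second 12.9% of the variance. Positions on the first component were -116, 4.04 and -22.6 for Fe at 15 DAF, 77.5, 74.9 and 39.2 for Fe at 20 DAF, -109 and -112 for the control at 15 DAF, and 47.8 to 59.0 for the control at 20 DAF. Replicates 2 and 3 at 15 DAF therefore lay between the control stages, and replicate 3 at 20 DAF was the lowest of its group.

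**Figure D1:**
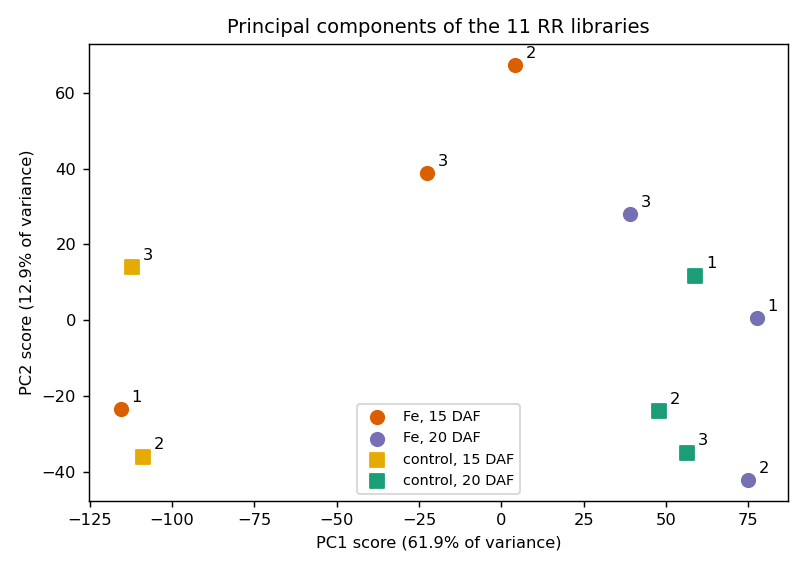
Position of the 11 RR libraries on the first (x axis, 61.9% of variance) and second (y axis, 12.9%) principal component of log2(FPKM + 1) over the 17308 genes tested, by treatment and day, with replicate numbers. Fe replicate 1 at 15 DAF lies beside the control libraries of 15 DAF, and Fe replicates 2 and 3 lie between the stages.

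The place of each Fe library between the control stages was measured over genes that were differentially expressed (DEGs) between the control days. For each such gene the mean of the control at 15 DAF was set to 0% and that at 20 DAF to 100%. Over 5306 control DEGs that rose (30.7% of the genes tested), the median position at 15 DAF was 2.63% in Fe replicate 1, 67.3% in replicate 2 and 43.5% in replicate 3. At 20 DAF it was 109%, 109% and 79.6%. Over 790 control DEGs that fell (4.56%), the medians were -7.75%, 48.7% and 64.9% at 15 DAF and 106%, 109% and 92.9% at 20 DAF. Replicates 2 and 3 at 15 DAF were thus part of the way along the control course in both directions, and replicate 1 was at its start. Centred on each library's median, which gave 887 rises (5.12%) and 1233 falls (7.12%) under control, the rises stood at 12.6%, 43.5% and 46.1% at 15 DAF and at 108%, 103% and 94.2% at 20 DAF. This description was added after the libraries had been compared.

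Library medians overlapped between the days. The median of log2(FPKM + 1) over the genes tested was 2.46, 3.19 and 2.80 at 15 DAF and 3.32, 3.39 and 3.00 at 20 DAF, with replicate 2 at 15 DAF above replicate 3 at 20 DAF (exact two-sided permutation test, p = 0.2, with 0.1 the smallest p that 3 against 3 libraries allow). The 10 most abundant genes held 38.7%, 19.5% and 22.1% of all FPKM at 15 DAF and 12.5%, 9.28% and 17.2% at 20 DAF. FPKM is a share of a library, and a loss among the most abundant transcripts raises the values of the others. Changes were therefore read as given and again after each library was centred on its median, and the median change over all genes tested was 0.46 as given and 0.04 centred. The change was above 0 in 74.2% of the genes as given and in 52.7% centred.

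Under Fe treatment 43 genes rose and 13 fell from 15 to 20 DAF as DEGs (a fold change of 1.5 or more with an adjusted p under 0.01), which is 0.248% and 0.0751% of the genes tested, or 0.324% in all. Centred, 193 genes (1.12%) rose and 258 (1.49%) fell, or 2.61% in all. All 56 DEGs as given were DEGs in the same direction when centred. At an adjusted p below 0.05, the threshold used for single genes and lists below, 1167 genes (6.74%) rose and 390 (2.25%) fell as given, and 1010 (5.84%) rose and 1327 (7.67%) fell centred. Counts of list members below are read against these shares. Of the rises as given, 931 of 1167 (79.8%) were also called centred, as were all 390 falls. No gene called in both readings changed direction. Centring lowered every change by the same amount, so falls could only deepen. The shared direction of these calls and of the 56 DEGs was therefore largely fixed in advance. The share of rises among the calls thus depended on the scaling. The 3 libraries of one day lay wholly above those of the other in 4843 genes (28%) that were higher at 20 DAF and 1336 genes (7.72%) that were lower.

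**Figure D2:**
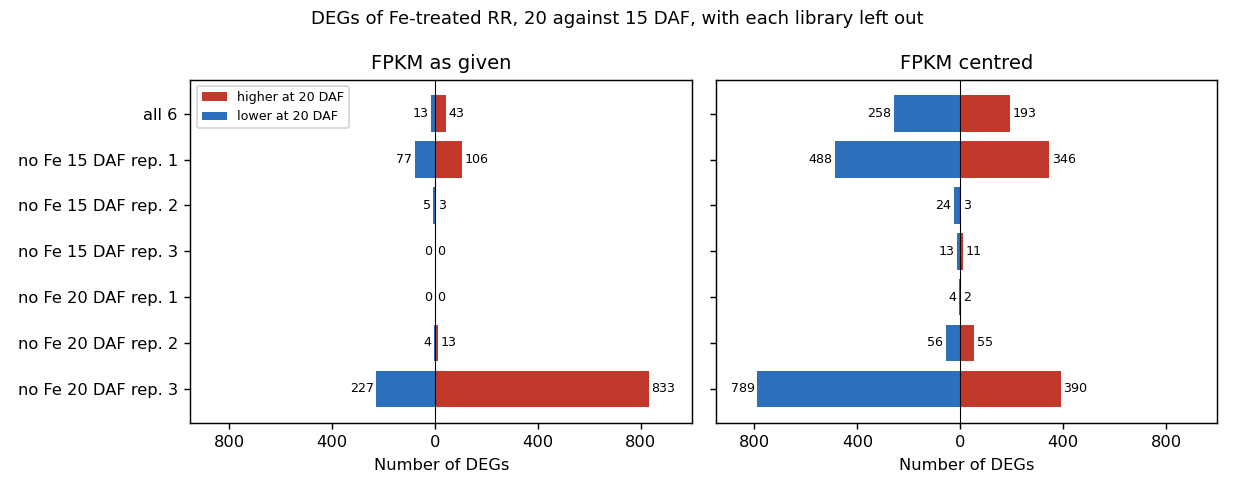
Number of DEGs that rose and fell from 15 to 20 DAF under Fe (adjusted p below 0.01, fold of at least 1.5) with all 6 libraries and with each library left out, as given and centred. The counts run from 0 without Fe replicate 3 at 15 DAF or Fe replicate 1 at 20 DAF to 833 rises and 227 falls without Fe replicate 3 at 20 DAF, as given.

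These counts turned on single libraries. As given, 106 genes rose and 77 fell as DEGs without Fe replicate 1 at 15 DAF, 3 and 5 without replicate 2, and none without replicate 3. For 20 DAF, there were none without replicate 1, 13 and 4 without replicate 2, and 833 and 227 without replicate 3. Of the 1557 genes called at an adjusted p below 0.05, 1017 (65.3%) were also called without Fe replicate 1 at 15 DAF, 1184 (76%) without replicate 2 and 6 (0.385%) without replicate 3. Left out at 20 DAF, replicate 1 kept 6 (0.385%), replicate 2 kept 305 (19.6%) and replicate 3 kept 1553 (99.7%). All 1557 kept their direction in every one of these fits. In 1539 of them (98.8%) the libraries of the 2 days did not overlap, so leaving out 1 library could not reverse the direction. 3 genes, LOC4343443, LOC107276153 and NewGene_3346, were called in all of these fits. Of the genes named below as changed, LOC4343443 passed the threshold as given without either of the libraries that mattered most (Fe replicate 3 at 15 DAF, Fe replicate 1 at 20 DAF) and OsGER3 without the second of them, and every other call as given was lost without each of these libraries.

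Storage protein transcripts were among the most abundant in the grain, and their summed level was lower in every library of 20 DAF. The share of all FPKM in 13 storage protein genes was 24.6%, 7.34% and 7.75% at 15 DAF and 1.26%, 0.914% and 2.90% at 20 DAF, so that each library at 20 DAF was below each at 15 DAF (exact two-sided permutation test, p = 0.1, the smallest possible). In the control the share was 21.9% and 28.2% at 15 DAF and 3.55%, 1.39% and 1.57% at 20 DAF. Replicates 2 and 3 of Fe at 15 DAF thus carried less storage protein RNA than replicate 1 and than either control library of that day. As given, 7 of the 13 genes fell, against 2.25% of all genes tested, and none rose. The median change was -3.08, beside 0.46 over all genes tested. Centred, 10 of 13 fell, with a median of -3.50.

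The glutelins, the main storage proteins of rice, gave 4 of the 12 largest called falls of named genes whose libraries did not overlap. GLUA-3 stood at 4087, 569.6 and 482 FPKM at 15 DAF and at 34.5, 23.3 and 74 FPKM at 20 DAF. It was far higher in replicate 1 than in the other libraries at 15 DAF, and the groups did not overlap. Its fall was -4.70 (SE 0.77, adjusted p 0.00774), or -3.71 without replicate 1 at 15 DAF (adjusted p 0.0043). GLUA-2 went from 23082, 3982 and 4279 to 702, 495 and 1276 FPKM, a fall of -3.26 (adjusted p 0.038). Without replicate 1 at 15 DAF its change was -2.43 and missed the threshold (adjusted p 0.0581). GLUB-4 and GLUB-5 fell by 3.19 and 3.05, and GLUB-2 by 3.08 with overlapping libraries. GLUB-4 and GLUB-5 are near-identical copies, and how the counting shared their reads is unknown, so each value is uncertain.

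Prolamins and seed allergens also had lower values at 20 DAF. The gene named prolamin (LOC4342688) was the most abundant of all in replicate 1 at 15 DAF, with 52108, 16992 and 18486 FPKM at 15 DAF and 2360.0, 1691 and 4105 FPKM at 20 DAF. All libraries at 20 DAF were lower, and the change of -3.32 just missed the threshold as given (adjusted p 0.0541) and passed it centred (adjusted p 0.0426). RA5, an allergen of the amylase and trypsin inhibitor family, read 10653, 3184 and 3319.6 FPKM at 15 DAF and 419, 219.5 and 1157 FPKM at 20 DAF. It fell by 3.35 (adjusted p 0.0236), and its relative RA17 fell by 2.93 (adjusted p 0.0248). GLB, at 4.13 to 12 FPKM, was the only member without a lower mean at 20 DAF. Without replicate 1 at 15 DAF 4 of the 13 genes were called lower, without replicate 2 at 20 DAF 1, and without replicate 3 at 20 DAF 12.

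**Figure D3:**
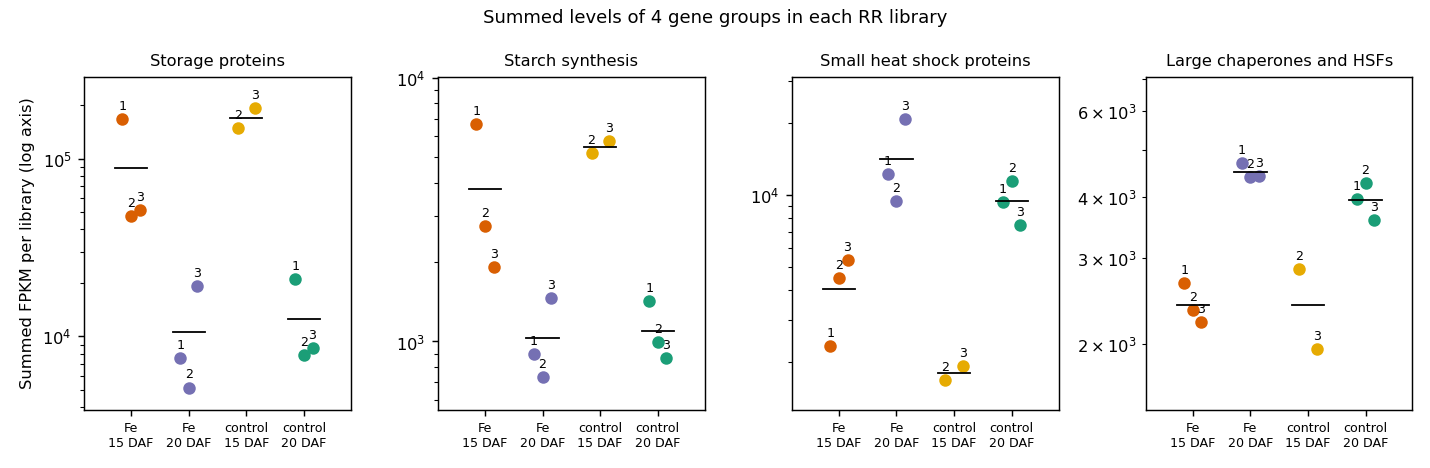
Summed FPKM of all genes, tested or not, of 4 gene lists in each RR library, on log axes, by treatment and day. The lists are storage proteins, starch synthesis, small heat shock proteins, and large chaperones and heat shock factors. Replicate numbers and a line at the group mean are shown. Storage protein sums run from 47704 to 166960 in Fe libraries at 15 DAF and from 5162 to 19172 at 20 DAF, and small heat shock protein sums from 2329 to 5344 and from 9420 to 20793.

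Starch synthesis genes fell in part. 3 of 10 fell as given and 5 centred, and the medians were -1.06 and -1.48. OsGBSS1, the granule-bound synthase that makes amylose, read 2107, 189 and 200.4 FPKM at 15 DAF and 41.5, 43.7 and 63.9 FPKM at 20 DAF. Replicate 1 at 15 DAF was far above replicates 2 and 3, and all 3 were above every library of 20 DAF. It fell by 3.12 (SE 0.68, adjusted p 0.0168), and by 1.98 without that library (adjusted p 0.0192). OsAGPS2, a subunit of the enzyme that makes ADP-glucose for starch, fell by 2.36 from 1729, 459.6 and 308 to 120.0, 71.5 and 205 FPKM, and ALK, the starch synthase that sets amylopectin chain length, fell by 2.11. Both missed the threshold without replicate 1 at 15 DAF (adjusted p 0.0591 and 0.0551).

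The branching enzyme gene named Q-enzyme stood apart in its level at 15 DAF. Its libraries read 1999, 1718 and 1070.0 FPKM at 15 DAF and 456, 388 and 845 FPKM at 20 DAF, without the high value of replicate 1 seen in OsGBSS1. Its change of -1.54 was called centred (adjusted p 0.029) but not as given (adjusted p 0.0904). OsISA1, the isoamylase that trims glucan during starch assembly, was at 233 FPKM in replicate 1 at 15 DAF and at 7.15 and 4.43 FPKM in the others of that day, and its 20 DAF values (1.80, 4.54 and 2.02) overlapped them. The summed level of the list was 6703, 2738 and 1924 FPKM at 15 DAF and 898, 735 and 1457 FPKM at 20 DAF.

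OsBiP1, OsPDIL2-3 and OsbZIP50, 3 genes tied to the endoplasmic reticulum, fell. They were set together after their values were seen, and no list of that compartment was tested. OsBiP1, its Hsp70 chaperone, read 838, 17.6 and 54.8 FPKM at 15 DAF and 4.63, 5.34 and 2.39 FPKM at 20 DAF. The first library was far above the others, and the groups did not overlap. OsBiP1 fell by 4.27 (SE 0.79, adjusted p 0.0101), and by 2.70 without replicate 1 at 15 DAF (adjusted p 0.00548). OsPDIL2-3, a protein disulfide isomerase, fell by 1.85 (adjusted p 0.0295), with the lowest 15 DAF value, 2.74 FPKM in replicate 2, close to the highest of 20 DAF, 2.54 FPKM. OsbZIP50, the transcription factor of the unfolded protein response, was even among the replicates, at 26.8, 22.4 and 20.9 FPKM and then 3.29, 3.9 and 4.77 FPKM. It fell by 2.29 as a DEG (SE 0.39, adjusted p 0.00845), and by 2.20 without replicate 1 at 15 DAF.

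Small heat shock proteins, which hold unfolding proteins in solution and build up in drying seeds, were called in a minority of cases. Of 16 tested, 3 rose as given and 2 centred, against 6.74% and 5.84% of all genes, none fell, and the median was 1.55 as given and 1.14 centred. In 12 of 16 genes the libraries at 20 DAF all lay above those at 15 DAF, against 28% of all genes tested. OsHsp23.2 read 48.1, 5.13 and 28.8 FPKM at 15 DAF and 187, 158 and 694 FPKM at 20 DAF. Replicate 3 was the highest of 20 DAF, and replicate 2 the lowest of 15 DAF. Its rise of 3.72 (SE 0.81, adjusted p 0.0168) was the largest called rise of any gene with a short name and separate libraries, and adjusted p ran from 0.00576 to 0.147 with each library left out. OsHsp26.7 rose by 2.31 from 216, 64.2 and 288 to 502, 545 and 1828 FPKM, and was not called centred (adjusted p 0.0732).

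OsHsp17.9A was the most abundant of these genes, with 666, 2827 and 2492 FPKM at 15 DAF and 7995, 4998 and 11137 FPKM at 20 DAF. Its change of 2.19 missed the threshold (adjusted p 0.0788). OsHsp17.9B was the exception, at 1.74, 2.35 and 2.64 FPKM and then 1.32, 1.55 and 0.725 FPKM, with lower values at 20 DAF and no call. The summed level of all 22 genes in this list, the 6 not tested included, was 2329, 4486 and 5344 FPKM at 15 DAF. At 20 DAF it was 12200, 9420 and 20793 FPKM. In the control it was 1683 and 1929 FPKM at 15 DAF and 7512 to 11465 FPKM at 20 DAF.

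Among 50 larger chaperones and heat shock factors, 7 rose (14%) and 2 fell (4%) as given, against 6.74% and 2.25% of all genes, and 6 and 2 centred. The medians were 0.86 and 0.44, beside 0.46 and 0.04 over all genes. The 2 that fell were OsBiP1 and OsPDIL2-3. OsHsf-24, a heat shock transcription factor, rose by 2.16 from 22.9, 15.6 and 23.1 to 91.7, 62.2 and 145 FPKM (adjusted p 0.0131), with its highest value in replicate 3. OsHsf-21 rose by 2.07 and OsHsf-17 by 1.35. CLPC3, a chaperone of the Clp family, rose by 1.76 from 3.66, 6.28 and 9.36 to 24.8, 24.2 and 19.9 FPKM (adjusted p 0.0113). HSP81-2, an Hsp90 gene, was at 298, 177 and 211 FPKM and then at 787, 797 and 554 FPKM, a rise of 1.65 (adjusted p 0.0416).

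Of 29 genes of iron and zinc handling, 4 rose and none fell, as given and centred, against 6.74% rising over all genes as given. The median of the list, 0.54 as given, was close to that of all genes, 0.46. OsMTP3, of the family that moves metal ions such as zinc out of the cytosol, read 14.2, 12.7 and 13.6 FPKM at 15 DAF and 64.1, 54.4 and 45 FPKM at 20 DAF. The 15 DAF libraries were nearly equal, and each 20 DAF library was well above them. OsMTP3 rose by 1.92 (SE 0.37, adjusted p 0.0113), and by 1.95 without replicate 1 at 15 DAF (adjusted p 0.00598). The copper ATPase gene OsHMA5 (LOC4336625) rose by 1.87 from 13, 47.8 and 41.3 to 135, 108 and 93.7 FPKM (adjusted p 0.0157), with replicate 1 the lowest at 15 DAF. Another ID shares the name OsHMA5 and is not described here.

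The zinc transporter gene OsZIP3 (LOC4338051) rose by 1.84 from 1.27, 0.409 and 1.36 to 6.9, 10.8 and 2.73 FPKM (adjusted p 0.0337). A second ID named OsZIP3 (LOC4336971) changed by 0.01. OsNramp2, a metal transporter of the NRAMP family, rose by 2.05 from 1.37, 9.45 and 2.96 to 39, 10.9 and 13.7 FPKM (adjusted p 0.0458). OsYSL2, the carrier of Fe bound to nicotianamine, read 28.5, 52.5 and 44.1 FPKM and then 106, 107 and 75.1 FPKM, with all libraries of 20 DAF above and a change of 1.21 that missed the threshold (adjusted p 0.0628). OsVIT1.2, an iron carrier of the vacuole, was at 3.06, 30.0 and 32.2 FPKM at 15 DAF and at 7.96, 5.86 and 9.36 FPKM at 20 DAF. Its replicate 1 at 15 DAF lay below all libraries of 20 DAF and the other replicates above them, and it was not called (adjusted p 0.323). Without Fe replicate 1 at 15 DAF 4 of the 29 rose and 1 fell, and without Fe replicate 3 at 20 DAF 7 rose.

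Antioxidant genes rose in 6 of 52 cases and fell in 1 as given, against 6.74% and 2.25% of all genes, and in 5 and 2 cases centred. The median was 0.63, beside 0.46 over all genes. OsTDX, a thioredoxin with a chaperone-binding domain, read 12.1, 24.1 and 21.8 FPKM at 15 DAF and 75.3, 78.5 and 63.8 FPKM at 20 DAF. It was among the DEGs, with a rise of 1.90 (SE 0.32, adjusted p 0.00802) and narrow groups at both days. OsAPx08, an ascorbate peroxidase, rose by 2.17 from 0.29, 0.947 and 1.04 to 8.23, 10.8 and 3.29 FPKM, and GRXS1, a glutaredoxin, by 1.92 from 2.83, 7.97 and 10.5 to 24.6, 31.3 and 24.5 FPKM. The thioredoxin genes OsTrx16 and OsTrx18 and the glutaredoxin gene GRXS4 rose by 1.25 to 1.40. OsTrx10, another thioredoxin, fell by 1.19 from 55.6, 73.3 and 61.4 to 26.7, 22.3 and 33.2 FPKM. The summed level of the list, 1624, 5481 and 5956 FPKM at 15 DAF and 6352, 5064 and 6245 FPKM at 20 DAF, overlapped between the days, and replicate 1 at 15 DAF alone was low.

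Transcription factors linked to grain filling and flower organs were called in both directions. As given, 3 of 43 (6.98%) rose, close to the 6.74% of all genes, and 4 (9.3%) fell, against 2.25%. Centred, 3 rose and 7 fell. OsMADS45 and OsMADS24, MADS-box genes of floral organ identity, were near or at 0 by 20 DAF. OsMADS45 read 4.12, 4.23 and 2.47 FPKM at 15 DAF and was listed at 0 in all 3 libraries at 20 DAF, and was called lower as a DEG (adjusted p 0.00992). OsMADS24 read 3.8, 5.3 and 2.51 FPKM, then 0.302 FPKM in replicate 1 and 0 in the others, and was also a DEG (adjusted p 0.00992). OsNF-YB-1, a nuclear factor Y subunit, read 15.8, 66.2 and 18.6 FPKM and then 2.37, 0.58 and 8.98 FPKM, a fall of 2.90 (adjusted p 0.0356). OsbZIP41 rose by 2.41 from 0.684, 4.69 and 3.5 to 23.8, 19.5 and 11.7 FPKM (SE 0.44, adjusted p 0.01). OsDof5 rose by 1.58 and OsMADS50, a MADS-box factor of flowering time, by 1.44. The homeobox gene OsHox22, in none of the lists, rose by 2.35 from 0.51, 3.15 and 5.38 to 13, 20.2 and 16.9 FPKM.

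Genes of the phenylpropanoid and flavonoid pathway, which feeds lignin and the proanthocyanidins of the red seed coat, were mostly uncalled. As given, 1 of 14 fell, and centred 4 fell, with medians of -0.66 and -1.08. OsHCT2, an acyltransferase at the branch to lignin, read 2.78, 17.2 and 5.43 FPKM at 15 DAF and 0.197, 0.28 and 1.09 FPKM at 20 DAF. All libraries at 20 DAF were lower, and the fall of 2.37 was called (SE 0.50, adjusted p 0.0148), also without replicate 1 at 15 DAF (-2.88, adjusted p 0.00389). Cfi, the chalcone isomerase gene, read 12.1, 0.572 and 13.7 FPKM and then 0, 5.77 and 0.0874 FPKM, with replicates on both sides and no call (adjusted p 0.31). OsCHS1, chalcone synthase, was at 1.04 to 3.00 FPKM and then at 0.0481 to 1.30 FPKM and was not called. PAL, at the pathway's entry, was at 64.8, 177 and 104 FPKM and 163, 109.7 and 236 FPKM, overlapping between the days. OsCAD1, a dehydrogenase of lignin synthesis, was higher in every library at 20 DAF, with a change of 1.26 (adjusted p 0.0742). ROMT-17, an O-methyltransferase outside the list, fell by 3.83 from 32.6, 13.2 and 14.6 to 0.219, 0.0673 and 0.988 FPKM (adjusted p 0.0152).

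Of the 28 lists, cell wall genes showed the widest gap in falls between the readings: 2 of 45 rose and 3 fell as given, while 2 rose and 15 fell centred. The medians were -0.24 and -0.66. OsCslF6, the synthase of mixed-linkage glucan, read 45.5, 5 and 1.74 FPKM at 15 DAF and 1.2, 0.893 and 1.01 FPKM at 20 DAF, high only in replicate 1 at 15 DAF, and fell by 2.17 (adjusted p 0.0437). OsEXP2, an expansin, fell by 2.05, and OsXRT5 by 2.55 from 53.7, 20.4 and 9.21 to 2.23, 0.946 and 8.45 FPKM. OsCslE1, a cellulose synthase-like gene, rose by 2.33 from 0.503, 4.48 and 3.67 to 16.6, 42.7 and 5.29 FPKM (adjusted p 0.0333), and OsGLU15, an endoglucanase, by 1.15. Without replicate 1 at 15 DAF none of these 5 calls was left, and 1 other gene fell.

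Beta-glucosidases, which split sugars from storage forms of hormones and phenolics, fell in 2 of 16 cases as given and 6 centred, and none rose. The medians were -0.71 and -1.13. Os4bglu14 read 52.2, 145 and 94.8 FPKM at 15 DAF and 10.0, 5.42 and 22.2 FPKM at 20 DAF, with replicate 2 the highest of 15 DAF. Its fall was -2.94 (SE 0.69, adjusted p 0.0212), and -3.32 without replicate 1 at 15 DAF (adjusted p 0.00758). Os4bglu16 fell by 1.94 from 5.28, 3.94 and 3.55 to 0.3, 0.456 and 0.313 FPKM (adjusted p 0.0408). Maltase, in none of the lists and named for the enzyme that splits maltose, fell by 3.32 from 1632, 211 and 231 to 33.9, 29.8 and 74 FPKM (adjusted p 0.0101).

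Sugar metabolism outside starch gave few calls. Of 17 sucrose genes 1 fell as given and 2 centred. The fall as given was OsSUS2, a sucrose synthase, which went from 131, 17.1 and 13.6 to 7.18, 4.19 and 8.98 FPKM (-2.12, adjusted p 0.0333). Without replicate 1 at 15 DAF its change was -1.11 (adjusted p 0.0731). The 5 tested members of the trehalose list were all phosphatase genes (TPP), of which none was called as given and 1, OsTPP3, fell centred (adjusted p 0.0492). OsTPP2 read 15, 1.55 and 0.839 FPKM and then 0.576, 0.735 and 0.433 FPKM, high only in replicate 1 at 15 DAF. OsTPP7 went the other way in its mean, with 3.25, 26.2 and 18.8 FPKM and then 42.2, 13.4 and 29.7 FPKM, and overlapped. Of 10 sugar transporters none was called as given and 1, OsMST3, fell centred (adjusted p 0.0489). OsSWEET15, an efflux carrier of sucrose, read 4.99, 1.42 and 1.71 FPKM at 15 DAF and at most 0.0612 FPKM at 20 DAF (adjusted p 0.193). OsMST3, a monosaccharide carrier, was at 0.14, 6.09 and 1.44 FPKM and then listed at 0 in all 3 libraries (adjusted p 0.151, or 0.0438 without replicate 1 at 15 DAF).

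Among 5 genes of amylases and starch breakdown none was called. The Maltase gene, whose fall is given above, was not in this list. AMY1.2, an alpha-amylase, had a large change of 4.80 with a wide error (SE 1.55, adjusted p 0.0586). Its libraries read 0.407, 11.4 and 10.0 FPKM at 15 DAF and 361, 19.4 and 562 FPKM at 20 DAF, so that replicate 2 of 20 DAF was not far above 2 of the 15 DAF libraries. RASI, an inhibitor of amylase and subtilisin, read 1169, 339.5 and 3191 FPKM and then 37.7, 77.8 and 128 FPKM. It fell by 3.89 (SE 1.14, adjusted p 0.0431) and, unlike the glutelins, was highest in replicate 3 of 15 DAF.

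Hormone genes gave few calls as given, and more falls centred. In the abscisic acid list 1 of 21 rose: OsABA8ox1, whose hydroxylase starts the breakdown of abscisic acid, read 0.616, 10.6 and 1.69 FPKM at 15 DAF and 15.4, 50.9 and 10.8 FPKM at 20 DAF (2.55, adjusted p 0.0322). Replicate 2 at 15 DAF reached nearly the lowest 20 DAF value, and the call was lost without replicate 1 at 15 DAF (1.95, adjusted p 0.0691). Its homologue OsABA8ox2 had lower values at 20 DAF, from 13.7, 47.7 and 47.3 to 2.32, 2.36 and 10.0 FPKM, with separate libraries, an adjusted p of 0.0508 as given and 0.017 centred. In the cytokinin list 1 of 21 fell as given and 4 centred. The response regulator OsRR2 fell in both readings, from 3.72, 3.03 and 1.39 to 0.0735, 0.0997 and 0.0603 FPKM (-1.73, adjusted p 0.0184). In the ethylene and jasmonate list the 2 of 34 that rose were both IDs named OsEIL1, a transcription factor of ethylene signalling, with changes of 1.65 (LOC4332697) and 1.63 (LOC107276358). The 2 IDs share a name and have similar levels, and whether they share reads is unknown. None of 43 auxin and 7 gibberellin genes was called as given, with medians of 0.01 and 0.60, and 4 auxin genes fell centred. In the ethylene and jasmonate list 4 genes fell centred, all with names of JAZ repressors of jasmonate signalling.

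Water channel genes held 2 of the 5 largest called rises among named genes with separate libraries. Of the 12 in the list 10 were not called, and the median was -0.24. OsTIP1, an aquaporin of the vacuole membrane, read 3.43, 32.6 and 50.9 FPKM at 15 DAF and 100.2, 304 and 115 FPKM at 20 DAF. It rose by 2.95 (SE 0.64, adjusted p 0.0166), and by 1.87 without replicate 1 at 15 DAF, the lowest library (adjusted p 0.0198). OsPIP1;2, an aquaporin of the plasma membrane, read 33.3, 43.4 and 46.1 FPKM and then 167, 269 and 245 FPKM, with even replicates at 15 DAF. It rose by 2.43 (SE 0.50, adjusted p 0.0137), and by 2.29 without replicate 1 at 15 DAF (adjusted p 0.00981).

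Other named genes with large rises were OsABCG53, an ABC transporter, AO-2, an aldehyde oxidase, and ELP3, a subunit of the Elongator complex. OsABCG53 went from 0.379, 5.05 and 3.91 to 26.1, 40.3 and 12.5 FPKM (2.84, adjusted p 0.0168). AO-2 went from 26.4, 133 and 105 to 425, 458 and 199 FPKM (2.21, adjusted p 0.0274). ELP3 had even groups, at 13, 17 and 20.1 FPKM and then 87.8, 97.1 and 55.9 FPKM (2.18, adjusted p 0.0115), and was called in 4 of the 6 fits with a library left out.

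OsGER3, a germin-like gene by its name, had the largest fall of all. It read 88.2, 213 and 113 FPKM at 15 DAF and 0.396, 0 and 0.122 FPKM at 20 DAF, in separate ranges and without the high replicate 1 of the storage genes. The fall was -6.80 (SE 0.82, adjusted p 0.00134), from -7.07 to -6.44 with each library left out (adjusted p from 0.00025 to 0.0501). Chib3H-h, of the chitinase list, fell by 3.65 from 663, 126 and 132 to 11.8, 8.9 and 43.4 FPKM (adjusted p 0.0115). In that list 1 of 14 rose and 1 fell, and the rise was OsCERK1 (LOC9270778), a receptor kinase for chitin (1.46, adjusted p 0.0344). Another ID shares the name OsCERK1 and is not described here. LTP (LOC4351318), a lipid transfer protein gene, was among the 10 most abundant genes, at 4886, 18187 and 22094 FPKM and then 927, 599 and 3105 FPKM. It was highest in replicates 2 and 3 of 15 DAF, and its change of -3.38 was called centred (adjusted p 0.0234) but not as given (adjusted p 0.0603).

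**Figure D4:**
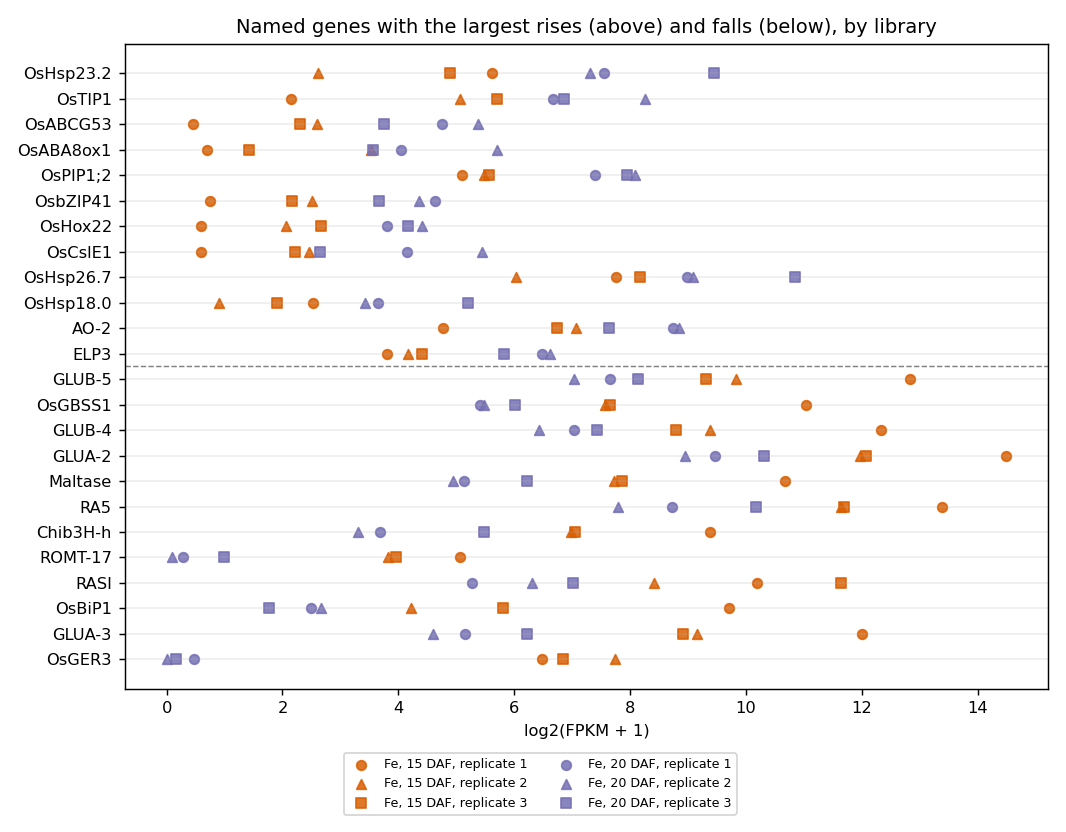
Levels, as log2(FPKM + 1), of the 12 named genes with the largest rises (above the dashed line) and the 12 with the largest falls (below it) in the 6 Fe libraries, by day and replicate. The genes were chosen for calls and separate libraries, so the gap between the days is a result of the choice; OsGER3 lies at 88.2, 213 and 113 FPKM at 15 DAF and at most 0.396 FPKM at 20 DAF.

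Of the 5 largest rises and 5 largest falls of any gene, called or not, 7 were in genes that the reference table does not name. The others were AMY1.2, OsGER3 and GLUA-3. LOC4344595 read 2.73, 21.6 and 59.6 FPKM at 15 DAF and 2730.0, 3291 and 837 FPKM at 20 DAF, a rise of 6.83 (SE 1.81, adjusted p 0.0308). LOC4343443 read 0.772, 5.87 and 7.4 FPKM and then 171, 415 and 80.2 FPKM, a rise of 5.26 (SE 0.64, adjusted p 0.00134), and adjusted p ran from 0.00063 to 0.0416 with each library left out. It is one of the 3 genes called with every library left out in turn. LOC107276898 and LOC4334182 rose by 4.47 and 4.21. Among the falls, LOC4344574 had a change of -5.34 with an SE of 2.41, from 2337, 2771 and 10637 to 90.1, 46.2 and 240.0 FPKM, and was not called (adjusted p 0.144). LOC4338211 was at 5.48, 627 and 31.9 FPKM at 15 DAF, most of it in replicate 2, and at most 1.32 FPKM at 20 DAF (adjusted p 0.0622).

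High abundance did not mean an even level among replicates. LOC4329812 had the highest mean of all genes, at 103, 20131 and 11957 FPKM at 15 DAF and 20239, 6265 and 38990.5 FPKM at 20 DAF. It was far lower in replicate 1 at 15 DAF than in replicate 2, overlapped between the days, and was not called (adjusted p 0.288). LOC4329275 read 10701, 13654 and 11086 FPKM and 5707, 4761 and 13075 FPKM, and also overlapped. LOC107276994 and LOC9270227, both in the list of the 10 highest, followed the storage proteins and fell by 3.19 and 3.33. GOS2, a translation initiation factor gene, was higher in every library at 20 DAF, at 1952, 6138 and 4332 FPKM and then 11670.2, 9162 and 9253 FPKM, but was not called (adjusted p 0.178).

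**Figure D5:**
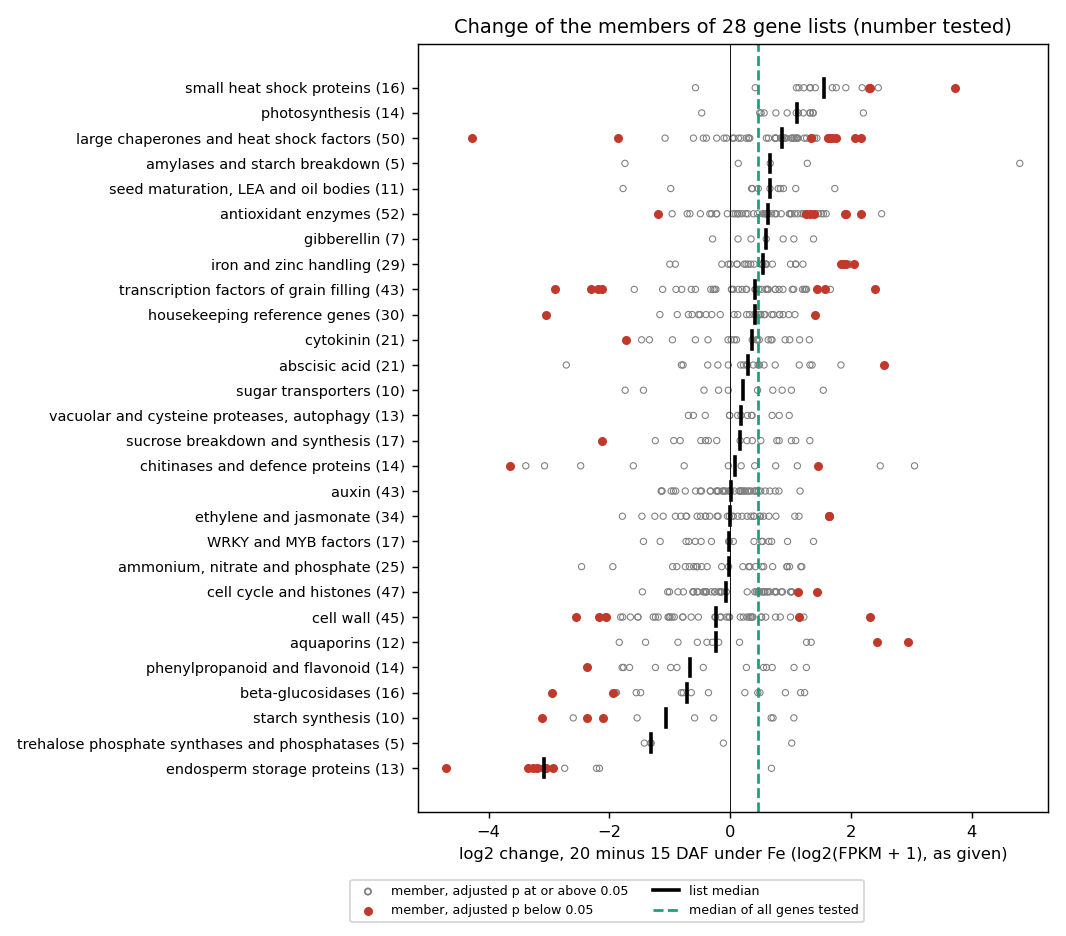
Change from 15 to 20 DAF under Fe of every tested member of 28 gene lists (x axis, difference of log2(FPKM + 1) as given), with the number tested in brackets. Filled points have an adjusted p below 0.05, black bars are list medians and the dashed line is the median of all genes tested (0.46); storage proteins lie lowest (median -3.08) and small heat shock proteins highest (1.55).

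Markers of the parts of the grain gave a mixed picture. Among 11 genes of seed maturation, LEA proteins and oil bodies, which mark embryo and aleurone, none was called, and the median was 0.66. RAB21, a dehydrin, read 1121, 2703 and 5843 FPKM at 15 DAF and 3953, 3856 and 7317 FPKM at 20 DAF, and OLE18, an oil body protein, 1424, 1799 and 4663 FPKM and 386, 316 and 2448 FPKM. Replicate 3 was the highest of its day in OLE18 at both days, and the days overlapped in both genes. The summed level of the list was 6657, 8434 and 18699 FPKM at 15 DAF and 11750, 12208 and 18296 FPKM at 20 DAF. Endosperm markers, the storage and starch lists above, were low at 20 DAF, so the balance between the 2 kinds of marker differed between the days and among the libraries of 15 DAF. The part of cell composition in the other results was not tested.

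Green tissue markers stood out in 1 library. The photosynthesis list held 18 genes, of which 14 were tested, with 0 of 14 called and a median of 1.11. Summed over all 18 genes, it read 24.8, 37.8 and 41.8 FPKM at 15 DAF and 65.9, 218 and 56.6 FPKM at 20 DAF. RBCS1, the small subunit of Rubisco, was at 0.585 to 1.37 FPKM in the other libraries and at 23.8 FPKM in replicate 2 of 20 DAF. CAB1R, a chlorophyll-binding protein, was at 11.1 FPKM there and at most 1.00 FPKM elsewhere. OsSWEET16 was also high in that library, at 87.7 FPKM beside 3.89 to 8.12 FPKM in the others. A control library of 20 DAF, replicate 2, had a list sum of 488 FPKM beside 49.5 and 80.6 FPKM in its group. High values of green tissue genes thus occurred under both treatments. OsSWEET16 was not high in that control library, at 6.68 FPKM beside 4.39 and 11.2 FPKM in its group.

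Most reference genes used to scale expression were not called. Of 30 housekeeping genes 1 rose and 1 fell as given (3.33% each), none rose and 4 fell centred, and the median of 0.41 as given was close to that of all genes. AC2, an actin gene, read 92.5, 4.42 and 4.18 FPKM at 15 DAF and 0.889, 0.388 and 0.756 FPKM at 20 DAF, high only in replicate 1 of 15 DAF, and fell by 3.05 (adjusted p 0.0325, or 0.0723 without that library). The initiation factor gene eIF-4A-1 read 166, 159 and 175 FPKM and then 448, 464 and 413 FPKM, a rise of 1.40 (adjusted p 0.0496) that was not called centred. rubi3, a polyubiquitin gene, read 64.4, 69.6 and 61.8 FPKM and then 24, 49 and 19.7 FPKM, and fell only when centred (adjusted p 0.00971).

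The remaining lists held few calls. Of 47 cell cycle and histone genes 2 rose, CDKG-2 (1.13) and OsRPA70c (1.45), a replication protein, and centred 1 rose and 6 fell. None of 17 WRKY and MYB factors, 13 proteases and autophagy genes, or 25 genes of ammonium, nitrate and phosphate handling was called as given. OsSPX3, a sensor of phosphate state, was lower in every library at 20 DAF, at 18.3, 4.63 and 7.25 FPKM and then 0.39, 1.42 and 3.72 FPKM (adjusted p 0.058), and OsGLN1;3, a glutamine synthetase, at 69.9, 70.2 and 49.3 FPKM and then 7.74, 8.44 and 17.5 FPKM (adjusted p 0.0591). Both were called only when centred, at an adjusted p of 0.0293 and 0.0196. Of the 9 genes in the study's qPCR primer set, 5 met the rule and none was called. LOC4341944, one of them, ran from 46.9 to 2120 FPKM among the 15 DAF libraries. LOC4330775 was higher in every library at 20 DAF, at 1.32, 27.4 and 14.4 FPKM and then 37, 28 and 36.5 FPKM (adjusted p 0.0992). 1 of the other 4, LOC4343325, was listed at 0 in all 6 libraries.

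Ripening under Fe was set beside ripening under control, fitted in the same model on other libraries. Under control 8114 genes (46.9%) rose and 1212 (7%) fell at an adjusted p below 0.05, with a median change of 0.81, and 5306 and 790 were DEGs. Centred, 2303 (13.3%) rose and 2325 (13.4%) fell, with a median of 0.08, so the excess of rises was there only as given. The control had 2 libraries at 15 DAF. Of the 1167 genes that rose under Fe, 1126 (96.5%) also rose under control, and of the 390 that fell, 346 (88.7%) also fell. In the other direction, 13.9% of the control rises and 28.5% of the control falls were called under Fe. Centred, 783 of the 1010 Fe rises (77.5%) and 1053 of the 1327 Fe falls (79.4%) were also called under control. Across the 17308 genes, which are not independent replicates, the changes under Fe and control correlated with Pearson's r = 0.841 and Spearman's rho = 0.801, and with 0.653 and 0.632 once Fe replicate 1 at 15 DAF was left out. Under control, storage proteins fell in 12 of 13 cases as given and centred. Small heat shock proteins rose in 11 of 16 cases as given and 3 centred, against 46.9% and 13.3% of all genes. Iron and zinc genes rose in 16 of 29 cases as given and 5 centred, close to those shares.

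The difference between the 2 ripenings, tested as an interaction, was called in 3 genes, all with a lower change under Fe (0.0173% of the genes tested), and none with a higher one. At an unadjusted p below 0.05, 105 genes had a higher and 616 a lower change under Fe as given, and 356 and 338 centred. Centred, the test again called 0 higher and 3 lower. None of the members of the 28 lists was among the 3. The test turned on Fe replicate 1 at 15 DAF: without it 82 genes had a higher and 183 a lower change at an adjusted p below 0.05 (21 and 21 as DEGs), 8 and 5 of them list members. Without Fe replicate 3 at 15 DAF none was called, and an unadjusted p below 0.05 was reached by 19 higher changes and 132 lower ones. LOC112939045 read 1.52, 5.32 and 7.26 FPKM at 15 DAF and 0.218, 1.64 and 0.413 FPKM at 20 DAF under Fe, against 0.51 and 0.621 FPKM and then 18.2, 15.3 and 8.64 FPKM under control. It was thus low in both control libraries of 15 DAF and high in all 3 of 20 DAF, while under Fe replicates 2 and 3 of 15 DAF were the high ones. The difference was -4.83 (SE 0.57, adjusted p 0.00205).

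LOC107281151 followed the same course, with 1.16, 2.75 and 5.06 FPKM and then 0.16, 0.762 and 0.463 FPKM under Fe and with 0.541 and 0.494 FPKM and then 11, 8.4 and 4.76 FPKM under control (difference -3.86, SE 0.49, adjusted p 0.00324). LOC107278380 read 0.771, 4.55 and 3.51 FPKM and then 0.193, 1.2 and 0.587 FPKM under Fe and 0.28 and 0.0603 FPKM and then 9.21, 8.23 and 4.33 FPKM under control (difference -3.91, SE 0.53, adjusted p 0.00485). The first pair overlap each other in the reference table. Whether the counting used strand was not given in the sources used here, so their reads cannot be told apart. Each of the 3 passed an adjusted p of 0.05 in 10 of 11 fits with an RR library left out and missed it without Fe replicate 3 at 15 DAF (adjusted p 0.0894, 0.136 and 0.142).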

How the data were processed

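Per the paper's methods and the labels, poly-A mRNA of grains was sequenced, and the authors aligned clean reads to IRGSP-1.0 with HISAT2 and assembled them with StringTie (versions and counting rule not given in the sources used here). The deposited values are FPKM per gene and library. They hold no counts, so depth is unknown, no counting interval can be given, and the authors' DESeq2 was not used here. Low values were searched for steps that 1 read would leave, and at most 9 genes shared a step at a tolerance of 0.001 log2.

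log2(FPKM + 1) was fitted in R 4.3.3 with limma 3.58.1, over all 17 libraries with 6 group means. Each group had its own variance factor from arrayWeights, and the eBayes prior followed mean expression. Only genes that reached FPKM 1 in 2 of the 6 libraries entered. P values were two-sided and Benjamini-Hochberg adjusted over the 17308 genes tested. The study's limits, a fold of 1.5 and an adjusted p of 0.01, defined DEGs. Single genes and list members were read at an adjusted p of 0.05. The same fit was made after centring each library on its median. Changes under control and the difference of the ripenings came from the same model. Separate cultivation of the replicates is given by the design text.

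The members, the 28 gene lists and the rules were chosen with earlier results of these data known. Lists were made from short names in the reference table, and genes whose names matched by chance were removed. Named genes were the 12 largest rises and 12 largest falls with a short name, an adjusted p below 0.05 and separate libraries, the 3 genes lowest in p within each list, the 10 genes with the highest mean, the 9 genes with qPCR primers, and the 5 largest rises and 5 largest falls without regard to a name. Other list members and the genes of the interaction were named after their values were seen. Promoter motifs and protein lengths were not analysed here. The alternatives were another pseudocount, filters, sets of libraries, thresholds and scalings, no variance factor, a replicate block, and each library left out.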

Additional observations from a re-analysis of the deposited data

Results flagged for a closer look

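The interaction test, which asks whether a gene changed differently from 15 to 20 DAF under Fe than under control, called 3 genes of the 17308 tested. LOC112939045 had a change under Fe that was lower by -4.83 on the log2 scale (SE 0.57, limma adjusted p 0.00205). For LOC107281151 the difference was -3.86 (SE 0.49, adjusted p 0.00324), and for LOC107278380 it was -3.91 (SE 0.53, adjusted p 0.00485). With each of the 11 RR libraries left out in turn, the differences stayed between -5.33 and -3.49 over the 3 genes, and adjusted p was above 0.05 for each of them without Fe replicate 3 at 15 DAF alone. Groups of 3 libraries were not searched for single outlying libraries.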

How the results depend on the processing

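Of the 1557 calls at an adjusted p below 0.05, none changed direction under the 16 other settings of the fit as given. With a filter at FPKM of 5, 1309 of them had a value. This was largely fixed in advance. The filters, the fits of only the 6 or 11 libraries, the variance factor and the replicate block leave each gene's difference of group means unchanged. Neither another pseudocount nor leaving out libraries could reverse the 1539 calls whose libraries did not overlap between the days. Of the 119 named genes, 4 lost their call with a pseudocount of 0.1, 21 with no filter, 9 with only the 6 libraries compared, 8 with only the 11 RR libraries, 5 with quantile normalization and 37 with the replicate block. Leaving out a library lost from 0 (Fe replicate 3 at 20 DAF) to 59 (Fe replicate 3 at 15 DAF) of them, with 58 lost without Fe replicate 1 at 20 DAF. The 119 include genes without a call, which had none to lose, so these counts are not shares of 119 calls. As stated above, nearly every named call was lost without either of the last 2 libraries. With no variance factor 43 gained a call. As given, the 56 DEGs became 30 with a pseudocount of 0.1, 119 with a filter over all 17 libraries, 18 with only the 6 libraries compared in the fit, 27 with only the 11 RR libraries, 2023 (1569 up, 454 down) with no variance factor, 356 (155 up, 201 down) with quantile normalization, and 1557 at an adjusted p below 0.05. They became 40 with no filter, 56 with a filter at FPKM of 5, and 56 at a fold of 2. With each library left out in turn the count ranged from 0 to 1060, and it was 4892 without Fe replicates 2 and 3 at 15 DAF together. At 0 DEGs (without Fe replicate 3 at 15 DAF or Fe replicate 1 at 20 DAF) limma still gave 1880 rises and 729 falls, and 2420 and 751, at an unadjusted p below 0.05.

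Centred, the 451 DEGs became 2 with only the 6 libraries, 1354 with no variance factor, 417 when centred on genes with FPKM of at least 5, and 421 with a pseudocount of 0.1. Leaving out a library gave 6 to 1179, and leaving out Fe replicates 2 and 3 at 15 DAF together gave 2446. For the difference of the ripenings, 3 genes were called as given, centred and with no variance factor, and 0 to 42 with a library left out. The cause of these shifts was not tested.

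With the replicate number as a block, in a fit of only the 6 libraries, 4 DEGs (1 up, 3 down) were called as given and 0 centred, against 18 and 2 in the fit of those 6 libraries without the block. Centred, the smallest adjusted p was 0.0614 and 2007 rises and 2091 falls had an unadjusted p below 0.05. Libraries with the same number had correlations of their deviations of -0.231, -0.287 and 0.0698, and those with different numbers from -0.0846 to 0.353. The deviations of the 3 libraries of a group sum to 0 in each gene. This check therefore cannot settle whether the numbers pair the samples. Depth is unknown, and 3 libraries a group with unequal replicates at 15 DAF limit every count. The 2 planned descriptions of promoters and protein lengths were not run.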
